A study of Mus musculus with 12 samples.

Results

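The 36 genes described here encode enzymes that break down amino acids in the liver. They were taken by gene symbol from a table of 24532 genes. All 36 were in the table, and all 36 passed the filter on low counts, as did 13379 genes in all. The RNA came from flash-frozen liver of 12 mice of 20 wk on the C57BL/6x129S6/SvEv background. Het (4 mice) is the heterozygous control of the series, KO (4 mice) is Atp7b-/-, and KO-Drug (4 mice) is Atp7b-/- fed an agonist of the liver X receptor (LXR). No Het mouse received the agonist, so its action without the mutation was not measured. Sex and litter are not in the labels, and neither are the agonist's name, its dose, how long it was fed or the part of the gene that the mutant allele lacks. The mutation is carried by every cell of the animal, and whole liver was sequenced.

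Atp7b is the copper-exporting ATPase of the hepatocyte, and its loss causes copper overload of the liver (Wilson disease). LXR is a nuclear receptor that senses oxysterols and switches on sterol efflux and lipid synthesis. Hepatocytes degrade most amino acids of the diet. The amino group is moved to 2-oxoglutarate or released as ammonia, and the carbon skeleton enters the tricarboxylic acid cycle, gluconeogenesis or ketone body synthesis. Inherited loss of single enzymes of the set is known from disease, such as tyrosinemia (Fah, Hpd, Tat), alkaptonuria (Hgd), primary hyperoxaluria (Agxt), nonketotic hyperglycinemia (Gldc, Amt) and propionic acidemia (Pcca, Pccb).

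Library totals ranged from 16535938 to 28329751 counts, and levels are given as counts per 1e6 (CPM) on TMM-scaled library sizes. Atp7b itself stood at 12.8 ± 2.62 CPM in Het (mean ± SD, n = 4), 2.09 ± 0.475 in KO and 2.22 ± 1.11 in KO-Drug. Xist, the female-specific RNA of the inactive X, did not exceed 0.425 CPM in 10 libraries but reached 81.7 in KO 5 and 17.8 in KO 6. The Y-linked Ddx3y was at 0.379 CPM in KO 5 and 64.3 in KO 6. Kdm5d, Eif2s3y and Uty, also Y-linked, did not exceed 0.35 CPM in KO 5 and read 10.3, 40.9 and 19.9 in KO 6. KO 5 thus has the pattern of a female liver, while KO 6 holds both Xist and Y-linked RNA. Both patterns occur only in KO, and the part of sex in the KO values was not tested. The main counts below are also given without KO 5 and KO 6. The choice of scaling matters throughout. Total-count scaling in place of TMM moves the median log2 change of all genes from 0.02 to 0.54 in KO vs Het and from -0.02 to -0.36 in KO-Drug vs KO. In KO-Drug vs Het it moves from 0 to 0.18. Major urinary protein genes alone made up 11.7% of the counts in Het libraries, against 1.55% in KO and 3.25% in KO-Drug. Changes below are log2 values relative to the TMM median, and those that hold under both scalings are named. A change given as found by TMM only was not called under total count.

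The promoters of Inmt, Hpd and Tdo2 are shown because Inmt moved most between the groups, while Hpd and Tdo2 had the highest levels per length in Het. With the agonist Hpd rose relative to KO, and Tdo2 was not called. Each line holds the 250 bases upstream of the RefSeq start site (build GRCm38.p6), read 5′ to 3′ on the minus strand, on which all 3 genes lie. Capitals mark TATAAA, and AGGTCA, the hexamer that many nuclear receptors bind, on either strand (TGACCT when on the other strand). The windows are chr6:55174991-55175240 for Inmt, chr5:123182724-123182973 for Hpd and chr3:81975729-81975978 for Tdo2.
Inmt: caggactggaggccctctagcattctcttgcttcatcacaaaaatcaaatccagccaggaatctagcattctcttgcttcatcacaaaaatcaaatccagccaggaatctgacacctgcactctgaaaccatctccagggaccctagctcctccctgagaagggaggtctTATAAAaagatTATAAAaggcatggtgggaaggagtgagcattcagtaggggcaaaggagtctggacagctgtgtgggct
Hpd: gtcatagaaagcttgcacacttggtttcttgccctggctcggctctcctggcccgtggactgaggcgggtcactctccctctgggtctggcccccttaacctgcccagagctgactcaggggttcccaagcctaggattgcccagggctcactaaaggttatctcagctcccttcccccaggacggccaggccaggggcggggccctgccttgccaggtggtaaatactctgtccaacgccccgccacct
Tdo2: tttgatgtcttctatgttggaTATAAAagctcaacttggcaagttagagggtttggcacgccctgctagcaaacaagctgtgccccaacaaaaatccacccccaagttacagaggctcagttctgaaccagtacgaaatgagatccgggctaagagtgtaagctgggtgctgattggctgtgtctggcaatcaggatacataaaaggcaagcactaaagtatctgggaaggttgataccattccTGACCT
Inmt holds TATAAA at 80 and 69 bases before its start, Tdo2 holds it once at 229 bases before and AGGTCA at 6 bases before, and the Hpd window holds neither.

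RefSeq windows of 300 bases (250 before to 50 after the start) were found for 32 of the 36 genes, 36 windows in all, and Dbt, Gpt, Kynu and Sds had no match. Only the 250 bases before the start were searched in each window. On either strand, AGGTCA was in 12 of these windows (33.3%) and in 14% of all 32851 windows. TATAAA was in 6 (16.7%) against 12.4%, and the 6 include both windows of Agxt2, which overlap and share the same site. CAAAGTCCA, a core of sites of HNF4A, was in 2 windows (5.56%) against 0.384%, and both belong to Agxt2 and overlap each other. TTGCNNAA, a core of C/EBP sites, was in 2 (5.56%) against 9.56%. Direct repeats of AGGTCA with a spacer of 1 or 4 bases were in none of the 36, and neither was the palindrome searched for the glucocorticoid receptor. These matches describe letters in a window and were not tied to any change.

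Levels per length spanned 210-fold in Het. In deposited FPKM the order began with Hpd (1044 ± 110, SD, n = 4), Tdo2 (716 ± 44.0), Tat (606 ± 211) and Gstz1 (372 ± 129). The Het libraries of Hpd lay above those of all 3 others, while Tat overlapped both Tdo2 and Gstz1. The order ended with Pcca (14.0 ± 2.63) and Acmsd (11.998 ± 1.58), which overlap, and Mccc1 (4.97 ± 0.569), which lay below both. Tyrosine enzymes and the first tryptophan enzyme thus led the set, and the carboxylase subunits of leucine and propionate breakdown stood near its end. Inmt had rank 10 in Het at 139 FPKM, and its mean was 10.7 in KO and 626 in KO-Drug.

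**Figure D1:**
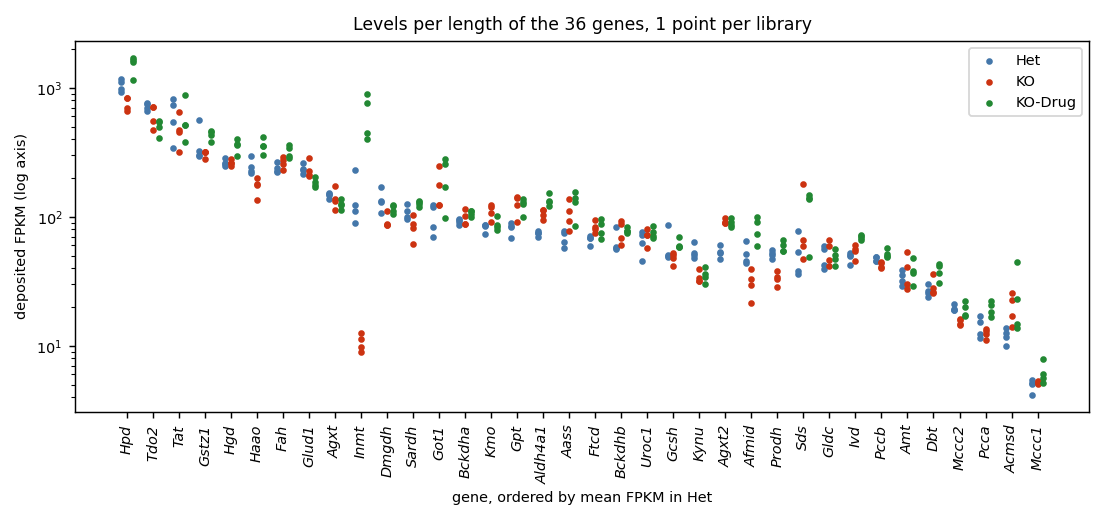
Deposited FPKM (log axis) of the 36 genes in each of the 12 libraries, ordered by the Het mean, with 1 point per library. Hpd leads at a Het mean of 1044 and Mccc1 ends the order at 4.97; the points of Inmt in KO lie apart from those of both other groups.

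In KO livers the set was lower than in Het on the TMM scale. Of the 36 genes, 20 fell, none rose and 16 did not pass the test, with a median log2 change of -0.51 against 0.02 over all genes tested. In the same fit 17.7% of all genes fell and 23% rose. A fall of at least 2-fold was called for 7 members, against 4.03% of all genes, and a rise of that size for none, against 15.8%. The libraries of KO lay wholly below those of Het for 18 members, against 17.2% of all genes, and wholly above for none, against 22.1%. Without KO 5 and KO 6, 23 members fell, against 15.6% of all genes in that fit. Under total-count scaling 8 members fell and 5 rose, with a median of 0.02, while 3.44% of all genes fell and 51.6% rose. The 8 that fell were called by TMM, by total count with and without the major urinary protein genes, and by the deposited FPKM alike: Hpd, Afmid, Kynu, Haao, Inmt, Dmgdh, Mccc2 and Prodh. The 5 that rose under total count, Kmo, Agxt2, Aass, Aldh4a1 and Gpt, were not called by TMM. Bulk RNA cannot tell fewer hepatocytes from less RNA per hepatocyte.

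In agonist-fed KO livers 19 members rose relative to KO, none fell and 17 did not pass the test, with a median of 0.65 against -0.02 over all genes. The same fit called 8.8% of all genes higher and 11% lower. A rise of at least 2-fold was called for 6 members, against 2.22% of all genes, and a fall of that size for none, against 7.62%. Of the 36, 21 had KO-Drug libraries wholly above KO, against 11.5% of all genes, and none wholly below, against 12.4%. Without KO 5 and KO 6, 21 rose, against 8.54% of all genes in that fit. Under total-count scaling 12 rose and none fell, with a median of 0.30, while 2.65% of all genes rose and 29.2% fell. Those 12 were called under all 4 ways of scaling: Hpd, Hgd, Afmid, Haao, Inmt, Sardh, Ivd, Mccc2, Pcca, Pccb, Prodh and Aldh4a1. This comparison and the former share the KO libraries, so their values are given side by side and not as independent evidence.

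**Figure D2:**
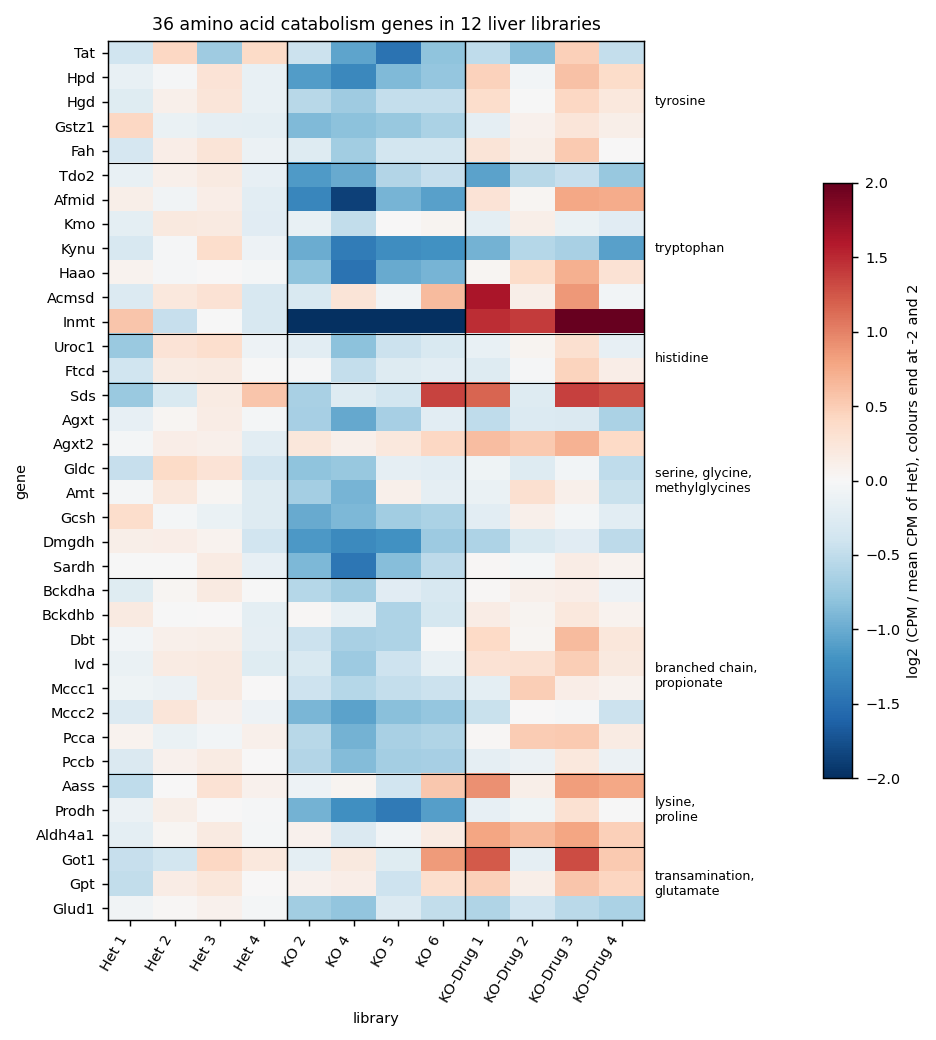
Log2 ratio of each library's CPM (TMM-scaled) to the Het mean for the 36 genes (rows, by role) in the 12 libraries (columns); blue is below Het, red above, and colours end at -2 and 2. The KO columns are blue for most genes, with Inmt darkest, while Aldh4a1, Agxt2, Aass and Got1 are pale or red there.

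Agonist-fed KO livers were compared with Het as well. Here 3 members rose (Inmt, Agxt2 and Aldh4a1), 3 fell (Tdo2, Kynu and Glud1) and 30 did not pass the test, with a median of 0.11 against 0 over all genes. Of all genes, 13% rose and 8.45% fell. Only Inmt among the 36 was called at 2-fold or more, upward, against 7.68% of all genes upward and 2.58% downward. The groups did not overlap for 4 members above Het and 4 below, against 13.6% and 11% of all genes. Under total-count scaling Inmt, Agxt2 and Aldh4a1 were among 15 that rose, and Tdo2 and Kynu fell, while Glud1 was not called. The others that rose under total count, which TMM did not call, were Hpd, Hgd, Fah, Afmid, Haao, Acmsd, Dbt, Ivd, Pcca, Aass, Got1 and Gpt. That scaling called 18.2% of all genes higher and 3.73% lower, so 2 of 36 lower is near the share of all genes. By TMM, 1 member fell without KO-Drug 4, against 5.98% of all genes, and 5 rose without KO-Drug 2, against 12.3%. A gene that did not pass the test is not thereby shown to have returned to the Het level.

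**Figure D3:**
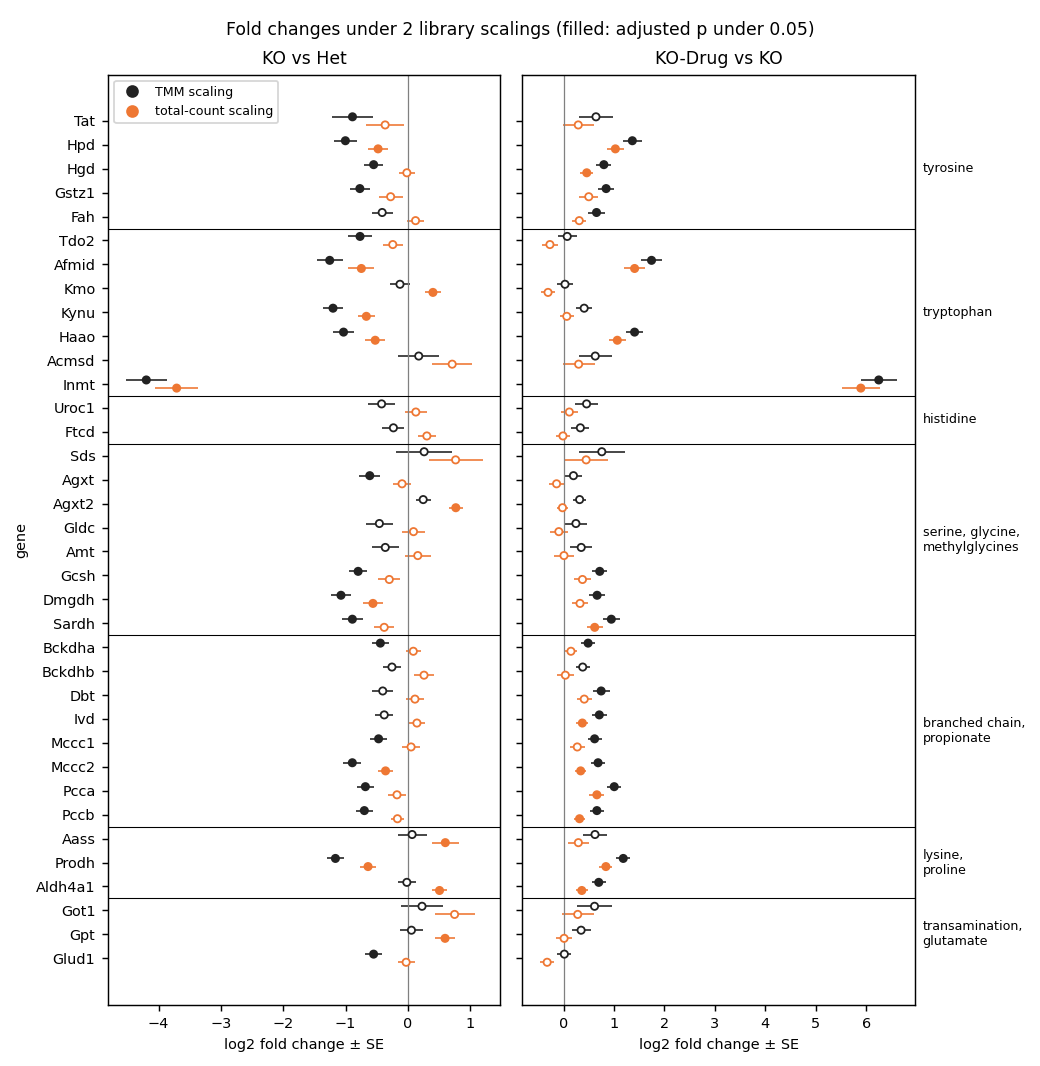
Log2 fold change ± SE of each gene in KO vs Het (left) and KO-Drug vs KO (right), under TMM (black) and total-count scaling (orange); filled points have an adjusted p under 0.05. Total-count values lie to the right of TMM values on the left panel and to the left of them on the right panel, and Inmt lies farthest from 0 in both.

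Tyrosine is degraded in 5 steps, each represented here. Tat, which removes the amino group, was variable: 1615, 2815, 1293 and 2763 CPM in Het, 1583, 1026, 758 and 1211 in KO, and 1498, 1174, 2958 and 1517 in KO-Drug. Its groups overlap, and its fall in KO was called just inside the threshold (-0.89 ± 0.34, SE; adjusted p = 0.0493), and not under total count. Hpd, the dioxygenase that makes homogentisate (chr5:123171807-123182723), read 1885, 2063, 2544 and 1895 CPM in Het against 971, 856, 1132 and 1225 in KO. Every KO library lay below every Het library (-1.0025 ± 0.19; adjusted p = 0.00103). In KO-Drug Hpd read 2878, 2025, 3163 and 2696, wholly above KO (1.36 ± 0.19; adjusted p = 0.000797) and overlapping Het (0.36 ± 0.18; adjusted p = 0.190). Total count called Hpd higher in KO-Drug than in Het (0.55; adjusted p = 0.0273). Total count without the major urinary protein genes and the deposited FPKM did not.

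Of the later tyrosine enzymes, Hgd opens the ring of homogentisate, Gstz1 isomerizes maleylacetoacetate and Fah cleaves the product to fumarate and acetoacetate. Hgd fell by 0.55 ± 0.15 in KO on the TMM scale and was at -0.02 under total count, and rose by 0.80 ± 0.15 with the agonist under both scalings. Gstz1 fell by 0.77 ± 0.16 and rose by 0.84 ± 0.16 with the agonist, both called by TMM only. Its Het 1 library stood at 1186 CPM, above the 813, 788 and 776 of the other Het libraries. Gstz1 overlaps the opposite-strand gene Pomt2, which was not called in any comparison. Fah stood just outside the threshold in KO (-0.41 ± 0.17; adjusted p = 0.0663), was at 0.12 under total count, and rose with the agonist by TMM only (0.65 ± 0.17; adjusted p = 0.0174). In sum over the 5 tyrosine genes, 4 fell in KO and 4 rose with the agonist by TMM, against 17.7% and 8.8% of all genes. By total count only Hpd fell in KO, and only Hpd and Hgd rose with the agonist. Summed CPM ranged from 5693 to 7015 in Het, 3135 to 3960.5 in KO and 5411 to 8859 in KO-Drug.

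Tryptophan is mostly degraded along the kynurenine pathway, whose entry enzyme in liver is Tdo2, a heme dioxygenase. Tdo2 (chr3:81958412-81975728) read 1554, 1847, 1945 and 1545 CPM in Het, 786, 858, 1147 and 1254 in KO, and 818, 1168, 1250.3 and 1016 in KO-Drug. Both Atp7b-/- groups lay wholly below Het and overlapped each other. The change was -0.77 ± 0.19 in KO (adjusted p = 0.00646) and -0.70 ± 0.19 in KO-Drug vs Het (adjusted p = 0.0195), while KO-Drug vs KO gave 0.07 ± 0.19 (adjusted p = 0.8286; total count -0.27). Under total count the fall in KO-Drug was called and that in KO was not (-0.24; adjusted p = 0.224).

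Afmid hydrolyses formylkynurenine, the product of Tdo2. It read 191, 167, 192 and 152 CPM in Het, 70.8, 48.0, 92.0 and 82.8 in KO, and 213, 180.3, 299 and 292 in KO-Drug. The KO libraries lay below all others, with -1.25 ± 0.21 against Het (adjusted p = 0.000562) and 1.74 ± 0.21 for KO-Drug vs KO (adjusted p = 0.000547). Afmid (chr11:117825503-117839908) overlaps the opposite-strand gene Tk1, which stood at 14.9, 17.1 and 27.4 CPM in Het, KO and KO-Drug and rose with the agonist (0.68 ± 0.16; adjusted p = 0.0129). Whether the counts used strand is not given in the sources used here.

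Kynu, the kynureninase, splits off alanine from hydroxykynurenine. It read 194, 237, 309.6 and 226 CPM in Het, 122, 91.6, 102 and 105 in KO, and 126, 162, 155 and 114 in KO-Drug. It fell in KO (-1.20 ± 0.17; adjusted p = 0.000147) and lay below Het in KO-Drug (-0.79 ± 0.17; adjusted p = 0.00408), under both scalings. The difference between KO-Drug and KO did not pass the test (0.41 ± 0.16; adjusted p = 0.0997).

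Haao makes the precursor of quinolinate and thus of NAD. It read 459, 431, 439 and 425 CPM in Het, 251, 157, 219 and 229.9 in KO, and 451, 568, 718 and 537 in KO-Drug, so that KO lay below both other groups without overlap. It fell by 1.03 ± 0.17 in KO (adjusted p = 0.000493) and rose by 1.41 ± 0.17 with the agonist (adjusted p = 0.000535). Kmo, the monooxygenase of the outer mitochondrial membrane that makes hydroxykynurenine, was not called by TMM in KO (-0.13 ± 0.16; adjusted p = 0.547) and was called higher under total count (0.40). Acmsd, which diverts the pathway from NAD to full oxidation, was not called in any comparison by TMM, and its KO-Drug libraries spread from 39.7 to 127 CPM. Total count called Acmsd higher in KO-Drug vs Het (1.01; adjusted p = 0.0373).

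Inmt methylates tryptamine and other amines and small sulfur compounds, and is a side branch of tryptophan metabolism rather than a step of kynurenine breakdown. It had the largest change of the set in all 3 comparisons. Inmt (chr6:55170627-55174990) read 299, 148, 201 and 163 CPM in Het, 9.38, 10.999, 12.9 and 10.8 in KO, and 566, 535, 1289 and 973 in KO-Drug. The 3 groups did not overlap, with KO lowest and KO-Drug highest. From Het to KO its level dropped 18.4-fold (log2 -4.20 ± 0.33; adjusted p = 1.40e-06). It was 76.1-fold higher in KO-Drug than in KO (6.25 ± 0.36; adjusted p = 2.34e-06) and 4.15-fold higher than in Het (2.05 ± 0.30; adjusted p = 0.000292). Its log2 change with the agonist was also the highest of all 13379 genes tested. Total-count scaling gave -3.71, 5.89 and 2.18. Among the 7 tryptophan genes, 5 fell in KO and 3 rose with the agonist by TMM, against 17.7% and 8.8% of all genes. By total count Afmid, Kynu, Haao and Inmt fell in KO and Kmo rose, and Afmid, Haao and Inmt rose with the agonist.

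**Figure D4:**
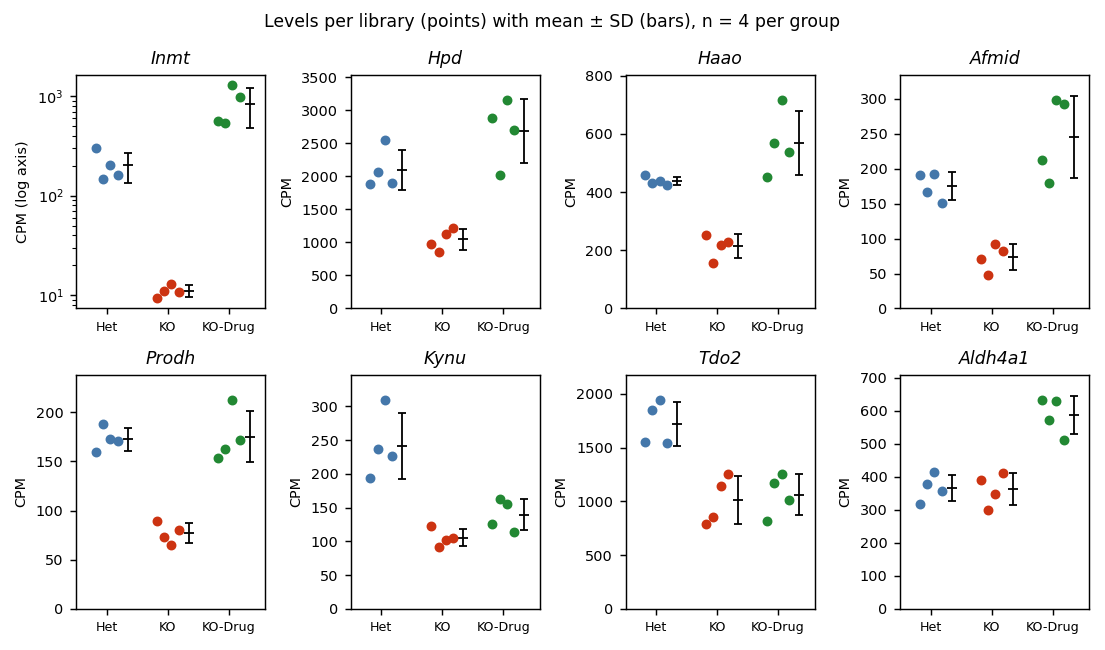
CPM (TMM-scaled) of 8 genes in each library (points) with the group mean ± SD (bars, n = 4); the axis of Inmt is logarithmic and the others start at 0. For Inmt, Hpd, Haao, Afmid and Prodh the KO points lie below both other groups, for Kynu and Tdo2 KO and KO-Drug overlap below Het, and for Aldh4a1 KO-Drug lies above Het and KO.

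Histidine breakdown was represented by Uroc1, the urocanate hydratase, and Ftcd, which passes the formimino group to tetrahydrofolate. Neither was called in any of the 3 comparisons by TMM or total count. Uroc1 ranged from 194 to 408 CPM in Het, 182 to 279.6 in KO and 289 to 404 in KO-Drug. Ftcd ranged from 203 to 305 CPM in Het, 192 to 265 in KO and 225 to 367 in KO-Drug. The groups overlapped for both genes, except that Uroc1 in KO-Drug lay wholly above KO.

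Glycine is broken down by the glycine cleavage system, whose P protein is Gldc, T protein Amt and lipoylated H protein Gcsh. Gcsh read 144, 110.1, 104 and 95.4 CPM in Het, 56.6, 61.1, 70.0 and 73.0 in KO, and 98.4, 122, 110.0 and 98.3 in KO-Drug. The KO libraries lay below both other groups (KO vs Het -0.80 ± 0.14, adjusted p = 0.000896; KO-Drug vs KO 0.72 ± 0.14, adjusted p = 0.00524), and neither call held under total count (-0.30 and 0.37). Gldc (-0.46 ± 0.22; adjusted p = 0.114; total count 0.09) and Amt (-0.36 ± 0.22; adjusted p = 0.204; total count 0.16) were not called in KO, nor with the agonist.

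Dmgdh and Sardh are the mitochondrial flavoenzymes that demethylate dimethylglycine and sarcosine in the breakdown of choline. Dmgdh read 639.6, 646, 623 and 454 CPM in Het, 268, 244, 255 and 356 in KO, and 385, 476, 505 and 413 in KO-Drug. KO lay below both other groups (-1.07 ± 0.17 against Het; adjusted p = 0.000332), and KO-Drug was above KO by TMM only (0.66 ± 0.17; adjusted p = 0.0152; total count 0.32). Sardh ranged from 646 to 812 CPM in Het, 266 to 504 in KO and 704 to 804 in KO-Drug. Its rise with the agonist held under both scalings (0.95 ± 0.17; adjusted p = 0.00363). Its fall in KO was called by TMM (-0.89 ± 0.17) and not by total count (-0.38; adjusted p = 0.0570). Total count without the major urinary protein genes and the deposited FPKM also called that fall.

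Agxt and Agxt2 both use glyoxylate as an amino acceptor, Agxt for its detoxification and Agxt2 with substrates such as methylated arginines. Agxt fell in KO by TMM (-0.61 ± 0.17; adjusted p = 0.0103; total count -0.09) and was not called with the agonist (0.19 ± 0.17; total count -0.14). Agxt2 read 168, 189.5, 185 and 149 CPM in Het, 203, 186, 199 and 231 in KO, and 266, 247, 281 and 228 in KO-Drug. KO-Drug lay wholly above Het (0.56 ± 0.12; adjusted p = 0.00568), and KO overlapped both. In KO, Agxt2 was not called by TMM (0.25 ± 0.12; adjusted p = 0.128) and was called higher under total count (0.77). Sds, the serine dehydratase of gluconeogenesis, was the most variable gene of the set, with a coefficient of variation within groups of 50.9% on average. Its KO 6 library read 225 CPM against 56.6, 73.6 and 69.0 in the other KO libraries, its KO-Drug 2 library 73.6 against 198, 229 and 216, and no comparison was called. Over the 8 genes of serine, glycine and the methylglycines, 4 fell in KO and 3 rose with the agonist by TMM, against 17.7% and 8.8% of all genes. By total count only Dmgdh of them fell in KO and Agxt2 rose, and only Sardh rose with the agonist.

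Leucine, isoleucine and valine pass through the branched-chain ketoacid dehydrogenase, whose E1 subunits are Bckdha and Bckdhb and whose E2 is Dbt. Leucine goes on through Ivd and the methylcrotonyl-CoA carboxylase (Mccc1, Mccc2), and isoleucine and valine through propionyl-CoA carboxylase (Pcca, Pccb). Of these 8 genes 5 fell in KO and 7 rose with the agonist by TMM, against 17.7% and 8.8% of all genes. All 8 had KO-Drug libraries wholly above KO, against 11.5% of all genes. By total count only Mccc2 of them fell in KO, and only Ivd, Mccc2, Pcca and Pccb rose with the agonist. Mccc2 read 51.0, 72.3, 64.9 and 57.1 CPM in Het, 32.5, 29.4, 34.3 and 35.9 in KO, and 45.2, 61.4, 60.1 and 45.6 in KO-Drug. Its KO libraries lay below both other groups under both scalings (KO vs Het -0.89 ± 0.14, adjusted p = 0.000401; KO-Drug vs KO 0.68 ± 0.14, adjusted p = 0.00612).

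Pcca carries the biotin of its carboxylase and Pccb the carboxyltransferase. Pccb read 132, 169.7, 179 and 162 CPM in Het, 107, 87.6, 99.9 and 101 in KO, and 142, 148, 187 and 149 in KO-Drug, so KO lay below both other groups. It fell by 0.70 ± 0.13 by TMM (adjusted p = 0.00116; total count -0.17) and rose by 0.66 ± 0.13 with the agonist (adjusted p = 0.00504). Pcca fell by 0.68 ± 0.13 by TMM (total count -0.17) and rose by 1.003 ± 0.14 with the agonist (adjusted p = 0.000749). Among the dehydrogenase subunits, Bckdhb was not called in KO (-0.26 ± 0.14; adjusted p = 0.163) or with the agonist (0.38 ± 0.14; adjusted p = 0.0741), and stood at 0.26 and 0.03 under total count. Bckdha fell in KO by TMM (-0.44 ± 0.14; adjusted p = 0.0197) and stood at 0.09 under total count, and Mccc1 fell by TMM (-0.47 ± 0.14; adjusted p = 0.0160) and stood at 0.05. Dbt (-0.40; adjusted p = 0.0671; total count 0.11) and Ivd (-0.38; adjusted p = 0.0530; total count 0.15) lay just outside the threshold in KO, and both rose with the agonist by TMM, Ivd under total count as well.

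Proline is oxidized in mitochondria by Prodh and then, via glutamate semialdehyde, by Aldh4a1. Prodh (chr16:18071726-18089283) read 159.6, 188, 173 and 170.3 CPM in Het, 89.6, 73.5, 64.6 and 80.6 in KO, and 154, 162, 213 and 172 in KO-Drug, with KO below both other groups. It fell by 1.16 ± 0.14 (adjusted p = 4.33e-05) and rose by 1.18 ± 0.14 with the agonist (adjusted p = 0.000442). KO-Drug and Het overlapped (0.02; adjusted p = 0.941). Aldh4a1 (chr4:139622871-139649691) read 318, 376, 413 and 357 CPM in Het, 389.9, 299.8, 347 and 410.3 in KO, and 633, 572, 629.7 and 512 in KO-Drug. It had the smallest change of the set in KO (-0.02 ± 0.14; adjusted p = 0.939; total count 0.51, called higher). KO-Drug lay wholly above both other groups (0.70 ± 0.14 against KO, adjusted p = 0.00542; 0.68 ± 0.14 against Het, adjusted p = 0.00406), under both scalings. Aass, the entry to lysine breakdown, was not called by TMM in any comparison (KO-Drug vs Het 0.69 ± 0.23; adjusted p = 0.0508). In KO-Drug vs Het total count called Aass higher (0.89; adjusted p = 0.00821). Total count without the major urinary protein genes and the deposited FPKM did so too.

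Got1 and Gpt, the cytosolic aspartate and alanine aminotransferases, feed amino groups into glutamate, and Glud1, the mitochondrial glutamate dehydrogenase, releases them as ammonia. Gpt read 154, 239.6, 253 and 216 CPM in Het, 228, 237, 161 and 272 in KO, and 301, 234, 317 and 289 in KO-Drug, and its groups overlapped in every comparison. It was not called by TMM (KO vs Het 0.06 ± 0.19; adjusted p = 0.827) and was called higher in KO under total count (0.60). Got1 was not called by TMM in any comparison, with 545 CPM in KO 6 and 253 to 345 in the other KO libraries. In KO-Drug vs Het total count called both Gpt (0.61; adjusted p = 0.0167) and Got1 (1.03; adjusted p = 0.0354) higher. Glud1 read 1040.5, 1109, 1164 and 1058 CPM in Het, 673, 631, 905 and 774 in KO, and 722, 836, 755 and 701 in KO-Drug. Both Atp7b-/- groups lay wholly below Het by TMM (-0.55 ± 0.14, adjusted p = 0.00787; -0.54 ± 0.14, adjusted p = 0.0163) and overlapped each other (KO-Drug vs KO 0.01 ± 0.14; total count -0.33). Under total count Glud1 was at -0.03 in KO and -0.35 in KO-Drug vs Het, neither called.

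Together the 36 genes made up 1.35 ± 0.0493% of a Het library's counts (SD, n = 4), 1.24 ± 0.0954% in KO and 1.63 ± 0.196% in KO-Drug. These are shares of all counts, as in total-count scaling. On the TMM scale the summed CPM was 15902 ± 1208 in Het, 10159 ± 1285 in KO and 16986 ± 2607 in KO-Drug. Shares within the set, given next, do not depend on library scaling. Expressed as a percent of the counts of the 36 genes, 7 members had every KO library below every Het library (Hpd, Afmid, Kynu, Haao, Inmt, Mccc2 and Prodh). The reverse held for 9 (Kmo, Acmsd, Ftcd, Agxt2, Ivd, Aass, Aldh4a1, Got1 and Gpt), and 20 overlapped. Inmt went from 1.30% of the set in Het to 0.11% in KO and 4.83% in KO-Drug, Agxt2 from 1.09% to 2.02% and 1.52%, and Kmo from 1.91% to 2.75% and 1.71%. In KO-Drug vs KO, 5 shares lay wholly above (Hpd, Afmid, Haao, Inmt and Prodh) and 5 wholly below (Kmo, Ftcd, Agxt, Agxt2 and Glud1). Such shares are relative, since a rise of 1 member lowers the share of the others.

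By cofactor, 8 members use pyridoxal phosphate: Tat, Kynu, Sds, Agxt, Agxt2, Gldc, Got1 and Gpt. Of these 3 fell in KO and none rose with the agonist, with medians of -0.20 and 0.38. Of the other 28, 17 fell in KO and 19 rose with the agonist, with medians of -0.55 and 0.67. Of all genes, 17.7% fell in KO and 8.8% rose with the agonist, so none of 8 is near the share of all genes. The difference between these subsets was not tested, and Tat, Sds and Got1 are among the most variable members. By compartment, 10 of 19 mitochondrial and 9 of 16 cytosolic enzymes fell in KO, and 12 and 7 rose with the agonist.

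Beyond the 36, a list of 41 other genes of amino acid breakdown was counted, of which 39 passed the filter. Tdh had no count and Dao 11 counts, all in KO. In KO 25 of the 39 fell and 1 rose by TMM, with a median of -0.62, while total count called 5 lower and 4 higher. The shares of all genes were 17.7% lower and 23% higher by TMM, and 3.44% lower and 51.6% higher by total count. With the agonist 26 rose and none fell relative to KO by TMM, and 9 rose by total count, against 8.8% and 2.65% of all genes. That count of 26 was 16 without KO 4 and 17 without KO-Drug 3. Gcat, which splits the product of threonine dehydrogenation, fell by 1.22 ± 0.17 (adjusted p = 0.000166), and Ido2, a second tryptophan dioxygenase, by 1.23 ± 0.18 (adjusted p = 0.000209), both also under total count. Gcdh of lysine and tryptophan breakdown fell by 0.95 ± 0.14 and Hsd17b10 of isoleucine breakdown by 0.98 ± 0.15, both under either scaling. Hoga1 of hydroxyproline breakdown (-0.85 ± 0.15) and Mcee, the methylmalonyl-CoA epimerase (-0.79 ± 0.15), fell by TMM only. Asrgl1, an asparaginase-like hydrolase, rose in KO (0.96 ± 0.19; adjusted p = 0.00168), from 13.0 ± 1.82 CPM to 25.3 ± 4.94, under both scalings.

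Regulators known to act on these genes were read from the same fit. Of 10, 6 fell in KO by TMM, against 17.7% of all genes: Cebpa (-1.36 ± 0.27), Hnf4a (-0.93 ± 0.13), the glucagon receptor Gcgr (-0.81 ± 0.14), Ppara (-0.77 ± 0.26), Klf15 (-0.70 ± 0.23) and the glucocorticoid receptor Nr3c1 (-0.57 ± 0.12). Under total count Cebpa (-0.83) and Hnf4a (-0.41) were also called lower, and the xenobiotic receptor Nr1i2 (0.67) was called higher. By TMM, Cebpb (-0.16 ± 0.19), Ppargc1a (-0.31 ± 0.36) and Nr1i2 (0.14 ± 0.21) were not called. With the agonist Ppara (0.98 ± 0.26) and Nr1i2 (0.77 ± 0.21) rose by TMM, and total count called neither. Hnf4a read 838 ± 79.3 CPM in Het, 438 ± 23.9 in KO and 485 ± 63.4 in KO-Drug, where it lay below Het under both scalings (-0.79; adjusted p = 0.00106 by TMM).

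Cell type markers were counted in the same fits, in which 23% of all genes rose in KO by TMM and 51.6% by total count. With the agonist 11% of all genes fell by TMM and 29.2% by total count. In the other direction, 17.7% of all genes fell in KO by TMM and 3.44% by total count. With the agonist 8.8% rose by TMM and 2.65% by total count. Of 18 hepatocyte markers 8 fell in KO by TMM (6 by total count, which called 1 higher), and 1, Apoa2, rose with the agonist (total count also called 2 lower). By TMM that rise of 1 of 18 is near the share of all genes. Hnf4a and Cebpa are on the hepatocyte list too. The summed CPM of the 18 hepatocyte markers was 109339 to 192308 in Het, 74189 to 112256 in KO and 101078 to 125972 in KO-Drug. Alb alone read 42381 to 82187 in Het, 19008 to 39001 in KO and 32456 to 47813 in KO-Drug. Of 16 macrophage and Kupffer cell markers 14 rose in KO and 11 fell with the agonist, with sums of 494 to 675, 1210.2 to 2682 and 569 to 1254 CPM. In KO, 7 of 12 stellate cell and fibroblast markers (sums of 415 to 533 in Het and 591 to 944 in KO), 7 of 7 neutrophil markers (3.07 to 12.1 and 18.3 to 103), 6 of 7 T and NK cell markers (2.96 to 5.51 and 8.83 to 23.2) and 4 of 9 cholangiocyte markers (27.8 to 31.9 and 67.7 to 157) rose by TMM. Another cholangiocyte marker fell by TMM and was not called lower by total count. By total count 8 stellate cell and fibroblast, 7 neutrophil, 7 T and NK cell and 5 cholangiocyte markers rose in KO. These 5 of 9 cholangiocyte markers are near the share of all genes. Within the cholangiocyte sums Spp1 alone read 13.9 to 20.6 CPM in Het and 45.6 to 125 in KO, and Krt7, Krt19 and Sox9 overlapped between these groups. Of 8 endothelial markers 3 rose by TMM and 4 by total count, near the shares of all genes, and the sums overlapped (298 to 471 in Het and 387 to 457 in KO). With the agonist, by TMM, 8 of 12 stellate cell and fibroblast markers fell relative to KO (sums of 386 to 417 in KO-Drug), as did 2 of 7 neutrophil markers (11.1 to 37.8), 3 of 7 T and NK cell markers (3.13 to 6.64) and 2 of 9 cholangiocyte markers (39.97 to 52.6), while 1 cholangiocyte marker rose. By total count 9, 6, 5 and 3 of these fell, and none rose. The 3 of 9 cholangiocyte markers are near the share of all genes. Of the endothelial markers 2 fell by TMM and 3 by total count. Klrb1c, Ncr1, Ly6g, Timp1 and Cldn7 had no count in Het. The part of the cell makeup in the changes of the 36 genes was not tested.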

How the data were processed

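Libraries were made from total RNA of 12 livers (RNeasy mini kit, TruSeq Stranded Total RNA kit), per the labels' protocols. The submitters' processing notes name FastQC 0.11.7, StringTie 2.1.3b and the build mm10; for the aligner, annotation and strand setting, each is not given in the sources used here. Per the file headers, the deposited table holds raw counts and FPKM values per gene for each library; 3 value columns without a name were not used. Nothing says how the mice relate, so p-values measure the spread between these libraries.

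Counts were fitted with edgeR 4.0.16 (R 4.3.3; quasi-likelihood test, TMM scaling, all 12 libraries in 1 fit with a mean per group) on 13379 genes kept by filterByExpr (minimum count 10, minimum total 15). Adjusted p-values are Benjamini-Hochberg over all genes tested, and a gene was called below 0.05. SE is the absolute log2 change over the square root of F. The script was tested on simulated data. Alternatives were DESeq2 1.42.0, limma 3.58.1 on log2(FPKM + 0.1) or log2(FPKM + 1) of the deposited FPKM, RLE and total-count scaling, no filter, only the groups compared, a replicate block and leaving out libraries. Promoter windows are from RefSeq.

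The members and lists were chosen with earlier results of these data known. Values in every library are given for the 10 members with the smallest adjusted p in KO vs Het, the 4 with the largest change among those called, the 2 with the smallest change, and the 4 called with the smallest adjusted p in each agonist comparison. In each role the members with the largest and the smallest change are named. Of the other genes of amino acid breakdown, the 6 with the smallest adjusted p in KO vs Het and those called higher are named. Of the regulators, 1 is not reported here. Values in every library for Tat, Tdo2 and Glud1 were added after their values were seen.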

Additional observations from a re-analysis of the deposited data

Results flagged for a closer look

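In 4 of the 108 groups of 4 libraries, 1 library stood apart from the other 3 by more than Dixon's 95% critical value for 4 values, and chance flags about 1 in 20 groups. Gstz1 read 1186 CPM in Het 1, with the next library at 813, a gap of 0.910 of the group's range. Sds read 225 CPM in KO 6, with the next at 73.6 and a gap of 0.899 of the range. Dmgdh read 454 CPM in Het 4, below the next at 623, with a gap of 0.883. Pccb read 187 CPM in KO-Drug 3, with the next at 149 and a gap of 0.856. These libraries differ from each other, and what sets them apart was not tested.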

How the results depend on the processing

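Scaling had the main effect on the counts of calls. Under total-count scaling, KO vs Het gave 8 members lower and 5 higher (other pathway genes 5 and 4), KO-Drug vs KO gave 12 higher (other pathway genes 9), and KO-Drug vs Het gave 15 higher (other pathway genes 0 lower and 9 higher). Of all genes, 3.44% fell and 51.6% rose in KO vs Het, and 2.65% rose in KO-Drug vs KO. In KO-Drug vs Het 3.73% of all genes fell and 18.2% rose. With limma on FPKM at both pseudocounts, KO vs Het gave 9 lower and 5 higher (other pathway genes 4 and 4), KO-Drug vs KO gave 9 other pathway genes higher, and KO-Drug vs Het gave 12 higher. Other pathway genes in KO-Drug vs Het were then 1 lower and 9 higher at a pseudocount of 0.1, and 0 and 8 at 1. Of all genes, 3.39% fell and 53.4% rose in KO vs Het at 0.1, and 3.42% and 53.2% at 1. In KO-Drug vs KO 2.77% of all genes rose at 0.1 and 2.8% at 1. In KO-Drug vs Het 3.87% of all genes fell and 17.3% rose at 0.1, and 3.51% and 15.4% at 1. Total count without the major urinary protein genes, chosen after seeing the data, gave 11 lower and 3 higher in KO vs Het (other pathway genes 8 and 2), 9 other pathway genes higher in KO-Drug vs KO, and 5 higher in KO-Drug vs Het. Of all genes, 5.11% fell and 39.4% rose in KO vs Het. With the agonist 2.81% of all genes rose relative to KO and 13.3% relative to Het. DESeq2 and the replicate block each gave 5 higher in KO-Drug vs Het, against 15.3% and 11.7% of all genes. The counts of 5 higher in KO-Drug vs Het are near the shares of all genes.

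In KO vs Het, 12 members changed sign from TMM to total count, and 12 to FPKM + 0.1. Of these, 8 (Fah, Uroc1, Ftcd, Gldc, Amt, Bckdhb, Dbt and Ivd) were called in neither fit. The other 4 were called in at least 1, with these values under total count, FPKM + 0.1 and FPKM + 1: Kmo (0.40, 0.41 and 0.40), Bckdha (0.087, 0.091 and 0.091), Mccc1 (0.052, 0.068 and 0.057) and Aldh4a1 (0.51, 0.52 and 0.51; 0.35 without the major urinary protein genes). From TMM to total count, 7 members changed sign in KO-Drug vs KO and 4 in KO-Drug vs Het.

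Leaving out 1 library gave 18 to 24 members lower in KO vs Het, against 14.8% to 16.2% of all genes, and 16 to 21 higher in KO-Drug vs KO, against 5.27% to 9.16%. In KO-Drug vs Het it gave 1 to 4 lower and 3 to 5 higher, against 5.95% to 8.17% and 10.2% to 12.3% of all genes. For the other pathway genes it gave 21 to 27 lower in KO vs Het, 16 to 25 higher in KO-Drug vs KO (16 without KO 4, 17 without KO-Drug 3), and 0 to 2 lower (0 without Het 2 or Het 3) and 2 to 4 higher (2 without Het 4) in KO-Drug vs Het. Same-numbered libraries correlated between -0.03 and 0.14 in their deviations from the group means, so the numbers were not taken to pair them. With the replicate block, 17 members were lower in KO vs Het and 17 higher in KO-Drug vs KO, against 10.2% and 4.73% of all genes.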
